A study of Homo sapiens with 6 samples.

Results

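The genes of MHC class I antigen presentation were followed in 786-O cells after YB1 knockdown. The members were 9 rows of the deposited table, chosen by gene symbol from 20030 listed genes. They are the heavy chain genes HLA-B, HLA-C, HLA-E and HLA-F, the light chain gene B2M, the peptide transporter genes TAP1 and TAP2, the tapasin gene TAPBP and the transactivator gene NLRC5. 786-O is an established human cell line from a clear cell renal cell carcinoma. The shYB1 group carried small hairpin RNA (shRNA) against YB1, delivered by lentivirus, and the vector group carried a scrambled, nonsense shRNA by the same route. Both groups were stable, puromycin-selected cultures at passages 16 to 18. Each group had 3 RNA-seq libraries, which nothing in the labels ties to separately infected cultures, so that p-values measure only the spread between these libraries. The series text speaks of 3 independent shRNAs against YB1, whereas the labels give a single shYB1 group. Whether its 3 libraries carried the same hairpin or different ones is not given by the labels. An effect of a hairpin other than on YB1 cannot be told apart from knockdown here.

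A class I molecule is a heavy chain paired with beta-2-microglobulin, and it shows peptides from the inside of the cell to CD8+ T cells. Peptides are cut by the proteasome, carried into the endoplasmic reticulum by the TAP1/TAP2 transporter and loaded with the help of tapasin. NLRC5 raises the transcription of class I genes by joining factors on the S, X and Y boxes of their promoters. The Y box is an inverted CCAAT sequence, and YB1 takes its name from binding to the Y box of MHC class II genes. Interferon gamma raises the pathway. Loss of class I from the surface is a known way by which tumor cells escape T cells.

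Promoters of 5 members are shown because the Y box is the sequence that links YB1's name to this pathway. They are RefSeq windows on GRCh38.p14, each running 5′ to 3′ on the strand of the gene from 250 bases before its start to 50 bases after it. Capitals mark matches, on either strand, to CCAAT (the Y box), to a GAAA pair (GAAA, 2 bases of any kind and GAAA again, the core of an interferon-stimulated response element) or to GGGNNTTCC (an NF-kB core), and neighboring matches can run together.
HLA-B, chr6:31357130-31357429, minus strand: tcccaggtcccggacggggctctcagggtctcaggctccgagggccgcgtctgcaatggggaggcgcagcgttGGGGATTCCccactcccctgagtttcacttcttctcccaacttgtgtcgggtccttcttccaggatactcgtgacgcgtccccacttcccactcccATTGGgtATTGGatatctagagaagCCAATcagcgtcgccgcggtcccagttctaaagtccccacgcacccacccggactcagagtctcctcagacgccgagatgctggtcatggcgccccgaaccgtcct
HLA-F, chr6:29723184-29723483, plus strand: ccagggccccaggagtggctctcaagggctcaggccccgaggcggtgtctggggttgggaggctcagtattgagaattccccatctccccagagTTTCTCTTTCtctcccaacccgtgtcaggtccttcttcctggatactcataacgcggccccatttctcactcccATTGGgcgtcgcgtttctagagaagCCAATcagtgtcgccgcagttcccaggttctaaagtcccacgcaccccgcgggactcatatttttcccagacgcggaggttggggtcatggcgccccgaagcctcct
B2M, chr15:44711267-44711566, plus strand: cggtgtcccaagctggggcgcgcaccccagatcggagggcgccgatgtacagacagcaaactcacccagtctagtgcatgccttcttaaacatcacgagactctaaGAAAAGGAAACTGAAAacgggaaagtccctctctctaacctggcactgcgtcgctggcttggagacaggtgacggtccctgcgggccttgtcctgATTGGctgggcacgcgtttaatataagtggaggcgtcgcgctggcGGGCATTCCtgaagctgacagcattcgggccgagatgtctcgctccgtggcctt
TAPBP, chr6:33314029-33314328, minus strand: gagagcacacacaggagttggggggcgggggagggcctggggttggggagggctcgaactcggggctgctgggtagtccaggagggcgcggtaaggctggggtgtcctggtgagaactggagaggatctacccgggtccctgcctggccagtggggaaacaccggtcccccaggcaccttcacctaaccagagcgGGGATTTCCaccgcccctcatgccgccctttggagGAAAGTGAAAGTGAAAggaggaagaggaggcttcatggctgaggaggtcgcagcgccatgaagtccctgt
TAP2, chr6:32838690-32838989, minus strand: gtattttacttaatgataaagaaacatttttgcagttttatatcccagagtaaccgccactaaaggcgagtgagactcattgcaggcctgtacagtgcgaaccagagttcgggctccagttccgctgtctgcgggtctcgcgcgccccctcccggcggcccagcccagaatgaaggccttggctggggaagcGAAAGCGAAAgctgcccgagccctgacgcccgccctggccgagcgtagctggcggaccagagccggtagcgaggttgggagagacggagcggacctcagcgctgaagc

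The table of promoters held 7 of the 9 members, and not HLA-E or NLRC5. CCAAT or its reverse ATTGG occurred in 5 of the 7, against 34.6% of all 35116 promoters. In HLA-B a forward CCAAT began 56 bases before the start, and reverse copies began 74 and 81 bases before it. HLA-F carried the same pair at 57 and 82 bases, and HLA-C, not printed, carried copies at 56, 80, 95 and 192 bases. B2M had a single ATTGG 49 bases before its start. TAP1 had 2 windows for its annotated starts, and 1 of them held a single copy, 249 bases before the start. TAP2 and TAPBP had none in this window. The GAAA pair was found in B2M, HLA-F, TAP1, TAP2 and TAPBP, or 5 of 7 members, against 3.57% of all promoters. The GGGNNTTCC core was found in B2M, HLA-B and TAPBP, or 3 of 7, against 6.58% of all promoters. These are matches of letters and not measured binding sites.

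Of the 9 members, 7 lie in the MHC on chromosome 6. On GRCh38, HLA-F spans 29722775 to 29738528, HLA-E 30489467 to 30494205, HLA-C 31268749 to 31272130 and HLA-B, whose annotated span runs into HLA-C, 31269491 to 31357188. TAP2 spans 32821833 to 32838780, TAP1 32845209 to 32853978 and TAPBP 33299694 to 33314387. B2M lies on chromosome 15 from 44711487 to 44718877, and NLRC5 on chromosome 16 from 56989485 to 57083531. Class I genes are near copies of each other, and the share of a gene's 50-base transcript words that also occur in another gene was 2.72% for HLA-B, 5.38% for HLA-C, 4.34% for HLA-E and 0.977% for HLA-F. It was 4.17% for TAPBP, 0.880% for TAP1 and 31.3% for TAP2, whose exons overlap those of a neighboring transcript, AL669918.1, over 2064 bases. B2M and NLRC5 shared 0 words. How the authors divided reads that match several genes is not given in the sources used here. By this measure the values of TAP2 above all, and to a lesser extent of TAPBP, TAP1 and the heavy chains, are less certain than those of B2M and NLRC5. The words come from reference transcripts and do not cover allele differences of these cells, so they may understate the uncertainty of the heavy chains. Strand use is not given either, and genes on the opposite strand overlap exons of 3 members. For HLA-B this was the pseudogene AL671883.2, over 17.8% of its exonic bases. For HLA-F these were the pseudogenes AL645939.1 (16.1%) and RPL23AP1 (5.92%) and the antisense gene HLA-F-AS1 (12.3%), and for TAP1 it was PSMB8-AS1 (9.49%).

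The values are FPKM (read fragments scaled by transcript length and library size) as deposited. No read counts come with them, and the absolute depth is therefore unknown. Steps between the lowest values (under 0.08 FPKM) put the depth of the libraries at 0.987 to 1.09 times that of shYB1 replicate 1. Totals over all genes were 282736 to 295887 FPKM and were highest in vector replicate 3. Fold changes are on the scale of log2(FPKM + 0.1), which understates the change of low genes. The 10439 genes whose average reached 1 FPKM were tested with limma (two-sided), and p-values were adjusted over all of them by the Benjamini-Hochberg method. All 9 members passed this filter. YBX1, the gene of YB1, stood at 366.5 to 377.9 FPKM with the control shRNA against 165.9 to 173.3 FPKM with shYB1, which is −1.14 on the log2 scale (standard error 0.031). The identity of the cells was checked on lists of markers. PAX8, a renal lineage factor, had 75.6 to 78.7 FPKM over the 6 libraries and did not separate the groups. Of the 8 renal tumor markers, limma called 1 lower and 1 higher. NNMT, a metabolic enzyme abundant in renal carcinoma, fell from 226 ± 9.79 to 175 ± 0.184 FPKM (SD, n = 3 each), or −0.37 on the log2 scale (limma adjusted p = 8.95e-05), about the size of the largest fall among the members. PAX2, another renal lineage factor, rose by 0.15 (limma adjusted p = 0.0392). This call was lost with median-of-ratios scaling, quantile normalization, no filter and no variance trend. It was also lost on leaving out any library but shYB1 replicate 2. CA9, a target of hypoxia signaling, was lower in every shYB1 library (−0.18) but missed the call (limma adjusted p = 0.0577). Of 10 immune cell markers, 4 were listed at 0 in every library, and PTPRC, the pan-leukocyte CD45 gene, did not exceed 0.016 FPKM. The summed level of these markers was 26.1 to 28.3 FPKM in vector and 22.7 to 24.3 FPKM in shYB1 libraries. Most of it was CD68, a lysosomal gene that is also expressed outside macrophages. LYZ, another of these markers, varied between libraries and was not called. It ranged from 0.070 to 2.87 FPKM in vector and from 0.17 to 1.26 FPKM in shYB1 libraries. CD68 fell with knockdown by 0.16 on the log2 scale (limma adjusted p = 0.00969). Its part in the results was not tested. Markers of endothelium and fibroblasts summed to 0.766 to 1.05 FPKM in vector and 0.762 to 0.875 FPKM in shYB1 libraries. In bulk RNA, fewer cells with a gene and less RNA of it per cell cannot be told apart.

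YB1 knockdown was accompanied by lower mRNA of 7 of the 9 members and higher mRNA of 1, with limma's adjusted p below 0.05. Among all genes tested, 6.93% were lower and 18.7% higher by the same call. The members were chosen with earlier results of these data known, so this contrast is not an independent test. The 4 heavy chains, B2M, TAPBP and NLRC5 fell, and TAP1 was not called. TAP2 was called higher on the deposited scale, a call lost after median-of-ratios or quantile scaling, where its log2 value stayed above 0. The changes were small, and 0 of the 9 met the screening criteria of the study's methods (at least 2-fold either way, with p below 0.05 before adjustment), which 0.22% of all genes met. By an unadjusted p under 0.05 alone, limma gave the same 7 lower members and 1 higher, against 10.8% of all genes lower and 28.2% higher. On the log2 scale the median change was −0.19 over the members and 0.055 over all genes tested. In the 7 lower members every shYB1 library lay below every vector library, which held for 12.5% of all genes, and in TAP2 every shYB1 library lay above, which held for 30.1%.

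**Figure D1:**
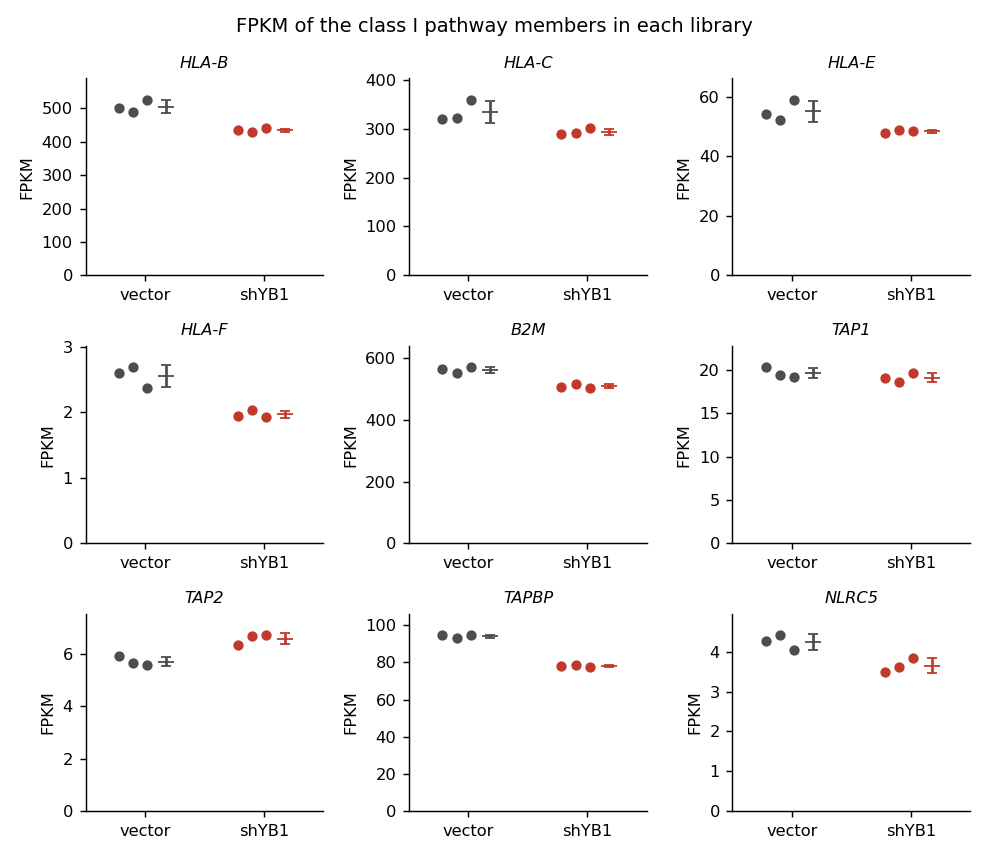
FPKM (vertical axes, from 0, each panel on its own scale) of the 9 members in the 3 vector and 3 shYB1 libraries. Points are libraries, and the bar beside them is the mean ± SD. The groups are apart in 8 panels and overlap in TAP1.

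The order of levels was the same in both groups. B2M was highest, followed by HLA-B, HLA-C, TAPBP, HLA-E, TAP1, TAP2, NLRC5 and HLA-F. Neighbors in this order did not overlap between libraries in either group. By mean FPKM over the 6 libraries, B2M ranked 80th and HLA-B 89th of the 20030 genes, so that both were among the most abundant mRNAs of these cells. HLA-F ranked 8891st.

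HLA-B, a classical heavy chain that presents peptides to CD8+ T cells, measured 499.6, 488.1 and 526.4 FPKM with the control shRNA (replicates 1 to 3, in this order from here on) against 433.7, 429.9 and 439.8 FPKM with shYB1. The lowest vector library stood above the highest shYB1 library. The mean fell by 13.9%, from 505 ± 19.6 to 434 ± 4.97 FPKM (SD, n = 3 each). On the log2 scale this was −0.22 (standard error 0.034, 95% interval −0.29 to −0.14), for which limma gave an adjusted p of 0.00172. Of all genes tested, 5.75% had a lower fold change.

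HLA-C, the other classical heavy chain among the members and a ligand of inhibitory receptors on natural killer cells, measured 319.0, 321.6 and 359.5 FPKM against 289.3, 290.3 and 301.1 FPKM with shYB1, without overlap. Vector replicate 3 was well above the other vector libraries. HLA-C fell by 0.18 on the log2 scale (standard error 0.046), with limma's adjusted p at 0.0166. Omitting vector replicate 3 left a log2 value of −0.13 (limma adjusted p = 0.0107), and omitting shYB1 replicate 1 or 2 ended the call (limma adjusted p = 0.0577 and 0.0575). The alternatives spanned adjusted p of 0.000709 to 0.0634 in limma.

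HLA-E, a non-classical heavy chain that presents leader peptides of other class I molecules to natural killer cells, was about an order of magnitude lower. It measured 54.2, 52.2 and 59.1 FPKM against 48.0, 49.0 and 48.4 FPKM with shYB1. The groups did not overlap, and the shYB1 libraries spread less. HLA-E fell by 0.19 on the log2 scale (standard error 0.045), with limma's adjusted p at 0.0136.

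HLA-F, a non-classical heavy chain found largely inside cells, was the least abundant member and had the largest fall in fold terms. It measured 2.61, 2.69 and 2.38 FPKM against 1.94, 2.03 and 1.93 FPKM with shYB1, with no overlap between the groups. The mean fell by 23.0%, or −0.36 on the log2 scale (standard error 0.080, 95% interval −0.54 to −0.18), with limma's adjusted p at 0.00916. Only 1.74% of all genes tested had a lower fold change.

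B2M, the light chain without which heavy chains do not reach the surface, measured 564.5, 551.3 and 570.9 FPKM against 507.7, 516.6 and 503.9 FPKM with shYB1. All shYB1 libraries were below all vector libraries. Its mean fell by 9.40%, the smallest fall among the 7 lower members. On the log2 scale B2M fell by 0.14 (standard error 0.030, limma adjusted p = 0.00661).

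TAPBP encodes tapasin, which bridges the peptide transporter and empty class I molecules and favors the binding of stable peptides. It measured 94.7, 93.0 and 94.5 FPKM against 78.2, 78.5 and 77.6 FPKM with shYB1. The libraries of each group lay within a few percent of each other, and the groups were wide apart relative to that spread. The mean fell by 17.0%, from 94.1 ± 0.954 to 78.1 ± 0.493 FPKM (SD, n = 3 each). This was −0.27 on the log2 scale (standard error 0.029, 95% interval −0.33 to −0.20), and limma's adjusted p of 0.000173 was the lowest among the members.

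NLRC5, the transactivator of class I genes, measured 4.28, 4.42 and 4.04 FPKM against 3.49, 3.63 and 3.85 FPKM with shYB1. The highest shYB1 library came close to the lowest vector library. NLRC5 fell by 0.21 on the log2 scale (standard error 0.068, 95% interval −0.36 to −0.062), and limma's adjusted p of 0.0428 was just under the threshold. In 14 alternatives limma's adjusted p spanned 0.0163 to 0.127, and it missed the threshold in 7 of them, among these the fits without vector replicate 1 (0.107), vector replicate 2 (0.120), shYB1 replicate 1 (0.127) or shYB1 replicate 2 (0.109). The direction was lower in all 14.

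TAP1 and TAP2, the chains of the peptide transporter, differed in limma's call. The exact permutation test of their ratio gave p = 0.1, the lowest it can give, and 0.225 after adjustment. TAP2 shares 31.3% of its 50-base transcript words with other genes, which makes its values less certain. TAP1 measured 20.3, 19.4 and 19.2 FPKM against 19.1, 18.6 and 19.7 FPKM with shYB1, and the groups overlapped. The log2 value was −0.037 with a 95% interval of −0.13 to 0.057 (limma adjusted p = 0.553). TAP2 measured 5.90, 5.63 and 5.57 FPKM against 6.34, 6.69 and 6.71 FPKM with shYB1, all above the vector range. It rose by 0.20 on the log2 scale (standard error 0.055, limma adjusted p = 0.0210), but this call was lost with median-of-ratios scaling (0.15, limma adjusted p = 0.0822) and with quantile normalization (0.14, limma adjusted p = 0.0993). Omitting vector replicate 2 or 3 or shYB1 replicate 2 or 3 also ended the call, at limma adjusted p of 0.0562, 0.0548, 0.0744 and 0.0626. The lowest adjusted p over the alternatives was 0.0157 in limma.

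Scaling of the libraries moved the size of these changes but not their direction. As deposited, the median of all genes lay above 0, and median-of-ratios scaling brought it to −0.000565. On that scale the falls were −0.27 for HLA-B, −0.24 for HLA-C, −0.24 for HLA-E, −0.41 for HLA-F, −0.20 for B2M, −0.32 for TAPBP and −0.27 for NLRC5, all still called by limma. Scaling to a common total left HLA-B at −0.22 and TAPBP at −0.27, and with it NLRC5 just missed the call (−0.22, limma adjusted p = 0.0508). Quantile normalization made the falls of HLA-B (−0.15), HLA-C (−0.12) and B2M (−0.11) smaller than as deposited. It made those of HLA-E (−0.23), HLA-F (−0.42), TAPBP (−0.30) and NLRC5 (−0.28) larger, and limma still called 7 members lower.

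**Figure D2:**
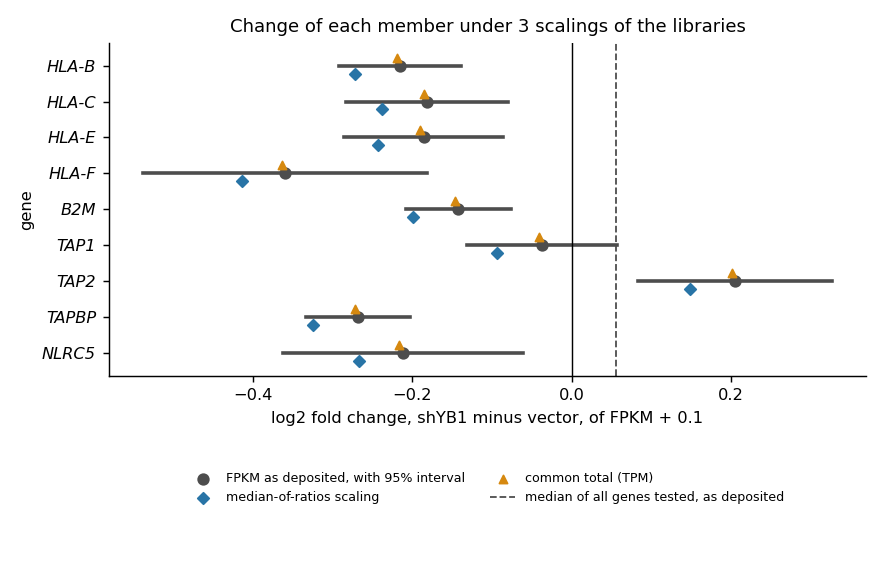
Log2 fold change of each member, shYB1 minus vector, on the scale of log2(FPKM + 0.1). Circles with bars are the FPKM as deposited with their 95% intervals, diamonds median-of-ratios scaling and triangles scaling to a common total, and the dashed line is the median of all genes as deposited (0.055). All markers of the 7 lower members and TAP1 lie left of 0, and those of TAP2 lie right of it.

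Ratios of FPKM between 2 genes of the same library do not depend on library scaling, so 9 of them were compared by two-sided exact permutation tests. With 3 libraries against 3 these tests cannot give a p under 0.1, and the lowest value after adjustment over the 9 ratios was 0.225. The TAP1 to TAP2 ratio was 3.45 in each vector library and 3.01, 2.78 and 2.94 with shYB1. The shYB1 libraries were all lower (log2 difference −0.25, exact permutation p = 0.1). The TAPBP to TAP1 ratio was also lower in every shYB1 library, at 4.66, 4.78 and 4.93 in vector and 4.09, 4.21 and 3.94 in shYB1 cells (log2 difference −0.23, exact permutation p = 0.1).

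The heavy chains were each set against B2M, and no test compared these ratios with each other. The HLA-B to B2M ratio was 0.885, 0.885 and 0.922 against 0.854, 0.832 and 0.873 with shYB1, without overlap (log2 difference −0.073). The HLA-F to B2M ratio was also lower in every shYB1 library, with a log2 difference of −0.23. The ratios of HLA-C and HLA-E to B2M overlapped between groups, with log2 differences of −0.039 and −0.044 (exact permutation p = 0.6 and 0.5).

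The immunoproteasome subunits PSMB8, PSMB9 and PSMB10 replace PSMB5, PSMB6 and PSMB7 when interferon induces the pathway, and they change which peptides are cut. The PSMB8 to PSMB5 ratio was 1.08 to 1.27 in vector and 1.04 to 1.33 in shYB1 libraries. The PSMB9 to PSMB6 ratio was 0.330 to 0.404 in vector and 0.318 to 0.385 in shYB1 libraries, and PSMB10 to PSMB7 was 0.212 to 0.232 against 0.190 to 0.221. All 3 ratios overlapped between groups, with exact permutation p of 0.9, 0.6 and 0.2. PSMB9 lies beside TAP1 in the MHC.

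**Figure D3:**
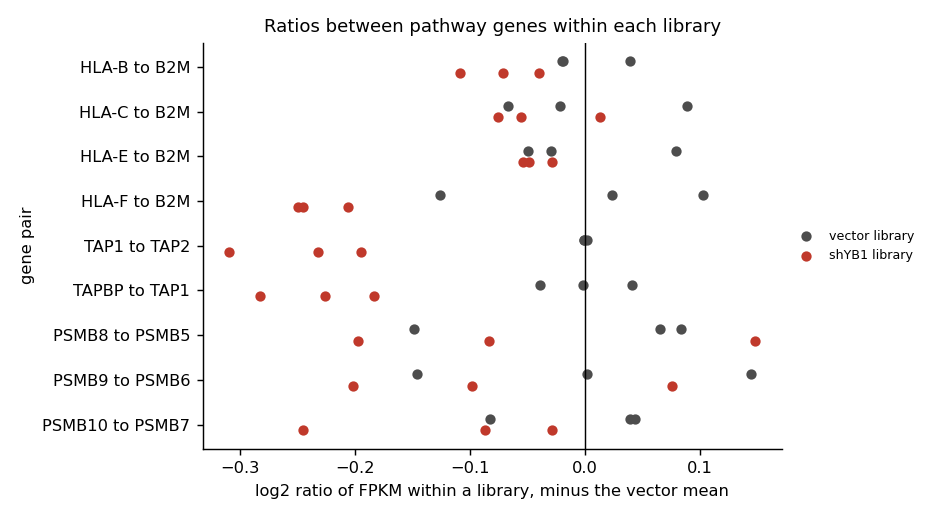
Log2 ratio of FPKM between the named genes in each library (horizontal axis), minus the mean of the vector libraries. The shYB1 libraries lie left of every vector library in 4 ratios, HLA-B to B2M, HLA-F to B2M, TAP1 to TAP2 and TAPBP to TAP1, and overlap them in the other 5.

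The rest of the pathway was taken from lists chosen with earlier results of these data known. Their counts beside the shares of all genes are therefore a description and not an independent test. Of 65 further genes in these lists, 52 were tested, and limma called 5 lower and 5 higher, around a median of 0.035 on the log2 scale. The same call held for 6.93% of all genes tested as lower and 18.7% as higher, around a median of 0.055. By an unadjusted p under 0.05 in limma these shares were 10.8% and 28.2%. After median-of-ratios scaling the counts were 9 lower and 2 higher, and the shares of all genes on that scale are not given here.

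Regulators of the interferon and NF-kB routes held 4 of these 5 lower genes. Of 12 tested, 4 were lower and 0 higher, against 6.93% and 18.7% of all genes. The median log2 fold change was −0.071, and after median-of-ratios scaling 5 were lower. The count without shYB1 replicate 1 was 2. STAT2 and IRF9, which act in the complex that answers type I interferon, fell by 0.22 (limma adjusted p = 0.0124) and 0.28 (limma adjusted p = 0.0337) on the log2 scale. SOCS1, a feedback inhibitor that interferon itself induces, fell the most, from 5.28 ± 0.702 to 3.37 ± 0.749 FPKM (SD, n = 3 each), or −0.65 on the log2 scale (limma adjusted p = 0.0131). The kinase gene JAK1, the most abundant of the list, had a log2 fold change of 0.035 and was not called. IRF1, a factor that binds interferon-stimulated response elements of class I genes, was at 0.043 (limma adjusted p = 0.554) and was named after its values were seen.

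The partners of NLRC5 on the S, X and Y boxes are the RFX proteins, CREB1, ATF1 and the NF-Y subunits. They gave 0 calls by limma among 8 genes tested. At an unadjusted p under 0.05 in limma 2 were higher, against 28.2% of all genes. Their log2 fold changes lay between 0.019 and 0.19. All 8 were expressed, at 47.3 to 48.0 FPKM in sum in vector and 48.6 to 51.2 FPKM in shYB1 libraries.

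The chaperones and trimming enzymes of peptide loading gave 0 calls by limma among 7 genes. Before adjustment 1 was higher, against 28.2% of all genes. Their changes lay between −0.14 and 0.097 on the log2 scale. CALR, which encodes the chaperone calreticulin of the loading complex, measured 399 ± 19.5 FPKM against 379 ± 10.6 FPKM with shYB1 (SD, n = 3 each). PDIA3, its oxidoreductase partner ERp57, had 152 ± 1.81 and 147 ± 3.80 FPKM. After median-of-ratios scaling 2 of these 7 genes were lower, and the share of all genes on that scale is not given here. With a common total 1 gene was lower. In the other direction, 1 gene was higher with quantile normalization, the filter at 5 FPKM or the replicate block, and without shYB1 replicate 3. The 5 immunoproteasome and PA28 activator genes also gave 0 calls by limma, with 1 higher before adjustment, and their changes ran from −0.080 to 0.11. Of the 3 constitutive catalytic subunits, PSMB7 rose by 0.19 (limma adjusted p = 0.0253), a call lost after median-of-ratios scaling, with no filter, with no variance trend, and without vector replicate 1, vector replicate 2, shYB1 replicate 2 or shYB1 replicate 3. Among 7 cytosolic peptidases, LAP3, which interferon gamma is known to induce, and THOP1, which destroys class I peptides, rose by 0.27 (limma adjusted p = 0.00669) and 0.21 (limma adjusted p = 0.0233), and 0 fell. By this call 18.7% of all genes were higher and 6.93% lower. The list of peptidases held 1 higher gene after median-of-ratios scaling. It also held 1 without vector replicate 1, vector replicate 2, shYB1 replicate 2 or shYB1 replicate 3.

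Of all genes tested, 6.93% were called lower, and of 10 class I-like genes 7 were tested and 1 was called. This was FCGRT, the neonatal Fc receptor, whose heavy chain also pairs with B2M. It measured 6.11, 6.25 and 7.23 FPKM against 5.29, 4.96 and 5.68 FPKM with shYB1, a fall without overlap (−0.29 on the log2 scale, limma adjusted p = 0.0196). The count of lower genes in this list was 0 without vector replicate 3, shYB1 replicate 1 or shYB1 replicate 2, and 2 without vector replicate 1 or shYB1 replicate 3. MICA and ULBP2, stress-induced ligands of the activating receptor NKG2D and the most abundant of the list, were not called.

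Of 13 genes of the MHC class II pathway, 4 were listed at 0 in all libraries and 3 passed the filter. CIITA, the class II counterpart of NLRC5, did not exceed 0.068 FPKM, and HLA-DRA, a class II chain, had a value above 0 only in shYB1 replicate 1. The tested genes were HLA-DMA (2.03 to 3.14 FPKM over the 6 libraries, not called), HLA-DMB and CD74, at levels near those of HLA-F and NLRC5. HLA-DMB, a chain of the class II peptide editor, measured 3.85, 4.31 and 5.60 FPKM against 6.20, 7.70 and 6.09 FPKM with shYB1, a rise of 0.54 on the log2 scale (limma adjusted p = 0.0206). CD74, the invariant chain, rose by 0.22 with limma's adjusted p at 0.0498, next to the threshold. As deposited, 18.7% of all genes tested were higher by the same call. With median-of-ratios scaling 1 gene of the list was higher. The count of higher genes in this list was 0 without vector replicate 1, vector replicate 2 or shYB1 replicate 2.

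**Figure D4:**
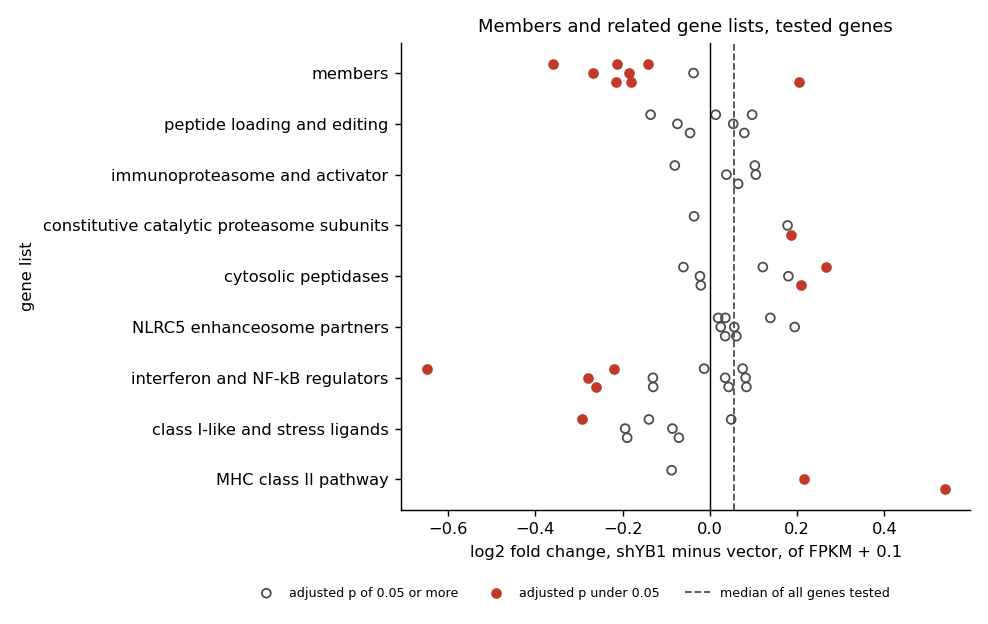
Log2 fold change (shYB1 minus vector, FPKM + 0.1) of the tested genes of each list, 1 point per gene and spread vertically for legibility. Filled points have an adjusted p under 0.05 from limma, and the dashed line is the median of all genes tested. The 7 lower members and the 4 lower interferon regulators lie left of 0, and TAP2 lies right of it.

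The deposited table itself assigns KEGG's antigen processing and presentation pathway to 69 genes, among them 8 of the 9 members and not NLRC5. Of the 61 other genes, 29 were tested, and 5 were lower and 6 higher, with a median log2 fold change of 0.035. Over all genes tested, 6.93% were lower and 18.7% higher, with a median of 0.055. The lower genes included LGMN, CTSB and TNF, and the endoplasmic reticulum chaperone gene HSPA5. LGMN and CTSB, which encode lysosomal proteases of the class II route, fell by 0.22 (limma adjusted p = 0.00247) and 0.13 (limma adjusted p = 0.0150). The count of lower genes was 3 without shYB1 replicate 1 or 2. The higher genes were CD74, HLA-DMB and the cytosolic heat shock genes HSP90AA1, HSP90AB1, HSPA4 and HSPA8. HSP90AA1 rose from 101 ± 0.968 to 125 ± 1.43 FPKM (SD, n = 3 each), or 0.31 on the log2 scale (limma adjusted p = 7.31e-05). The count of higher genes was 3 without vector replicate 1 or shYB1 replicate 2. This annotation mixes class I and class II genes, and it was added after the table was seen.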

How the data were processed

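RNA of 3 vector and 3 shYB1 libraries of 786-O cells was sequenced. The authors deposited FPKM per gene and library with gene annotation, and the submitters' processing notes list Trimmomatic, HISAT2, Cufflinks, HTSeq, DESeq and GRCh38, without versions or order. Groups and replicate numbers came from the sample titles. No column of library values was left out.

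From the deposited FPKM, log2(FPKM + 0.1) of genes averaging 1 FPKM or more was fitted with limma 3.58.1 in R 4.3.3 (trended, robust variance prior). The study's methods name a 2-fold screen but no test for sequencing. Ratios were compared by exact permutation tests. Alternatives were pseudocounts of 1 and 0.01, no filter or a filter at 5 FPKM, other scalings, no variance trend, a replicate block and leaving out each library. limma was checked on simulated data. Positions and transcript words came from GENCODE release 29 (GRCh38), promoters from RefSeq. Python 3.11.15 was used otherwise.

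The members and lists were chosen with earlier results of these data known. Named genes were all members, the ratio genes, and per list up to 4 called genes with the largest change and up to 2 of the highest level. Some genes of the pathway are not reported here.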

Additional observations from a re-analysis of the deposited data

How the results depend on the processing

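The count of lower members was 5 to 7 in all 15 alternatives. HLA-B, B2M, HLA-F and TAPBP were called in every alternative that tested them, 15, 15, 14 and 15 in number, and HLA-E in 14 of 15 and HLA-C in 12 of 15. No member changed direction. The count of higher members, 1, was 0 with median-of-ratios scaling and with quantile normalization, and 0 to 1 when a library was left out. The count of lower genes over the other lists, 5, was 9 with median-of-ratios scaling, 8 with quantile normalization and 2 to 6 when a library was left out. The count of higher genes, 5, was 2 with no filter, 2 with median-of-ratios scaling and 1 to 6 when a library was left out. The causes were not tested.

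With the replicate number as a block, YBX1 had a log2 fold change of −1.14, and 6 members were lower and 1 higher. NLRC5 was the member lost (adjusted p = 0.0608 from limma). Deviations from the group means correlated across genes at −0.169 to −0.00824 for equal replicate numbers and −0.0507 to 0.113 for unequal numbers. Deviations within a group of 3 libraries are tied to each other. These few correlations therefore cannot show whether libraries of equal number were handled together, and the labels do not say.

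FPKM carry no counts, which limits what can be said of the low genes HLA-F and NLRC5.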
